A study of Mus musculus with 6 samples.

Results

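Amino acid transporter genes of the plasma membrane were followed through the lobes of the mouse prostate, with and without a human MYC transgene. The genes were chosen by name and function, with earlier results of these data known. They are 10 of the 24908 genes in the table, which lists them in capitals as SLC7A5, SLC3A2, SLC1A5, SLC1A4, SLC7A1, SLC7A11, SLC38A1, SLC38A2, SLC43A1 and SLC6A14. All 10 averaged 1 FPKM or more over the libraries, a filter on low values that kept 12361 genes for comparison. FPKM divides the fragments of a gene by its transcript length and by the mapped reads of the library, which gives a level per length that may be compared between genes.

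Bulk RNA-seq was done on 6 libraries from 12-week-old male FVB mice fed a purified diet, 1 library each from the anterior (AP), dorsolateral (DLP) and ventral (VP) prostate of 1 wild-type (WT) mouse and of 1 Hi-MYC littermate (MYC). The MYC mouse was heterozygous for a human c-MYC transgene under the androgen-responsive ARR2Pb promoter, which is active in prostate epithelium and mostly in luminal cells. Per the study, prostatic intraepithelial neoplasia was then present in most of the DLP and VP, while the AP was little affected. The lobes were dissociated into cell suspensions before RNA was taken. The 3 lobes of a genotype come from the same mouse, so genotype and animal cannot be told apart. No p-value was computed, and the 95% intervals given with ratios cover counting error only.

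Amino acids cross the plasma membrane through carriers of the SLC families, each with its own set of substrates. LAT1, encoded by Slc7a5, exchanges glutamine and other amino acids for leucine and other large neutral amino acids, and it reaches the membrane as a light chain bound by a disulfide bridge to the heavy chain CD98, encoded by Slc3a2. Leucine, arginine and glutamine taken up by carriers of the SLC families feed the mTORC1 growth pathway. Amino acid shortage raises many transporter genes through the transcription factor ATF4. Several of these genes are also known as targets of MYC in other cells, and the prostate is a secretory gland with a large output of protein.

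The promoters with a match to a MYC or an ATF4 motif are shown first, because both factors are known to act on transporter genes. Promoter sequences of 300 bases, from 250 bases before to 50 after the start of transcription, were taken from RefSeq for the assembly GRCm38.p6, and 7 of the 10 genes had an entry (8 promoters). Slc7a5, Slc1a5 and Slc38a1 were not searched. The starts used for Slc43a1 and Slc7a11 lie inside the gene intervals given below, so other starts of these genes were not searched. Slc43a1, the gene of the leucine transporter LAT3, holds the E-box CACGTG, the motif bound by MYC with MAX, at positions -64 to -59 from the start. Slc7a11, the gene of the cystine transporter xCT, holds the letters TGATGNAA, the core of the element bound by ATF4 with C/EBP proteins, at -66 to -59, and again on the other strand at -47 to -40. Slc1a4, the gene of the neutral amino acid transporter ASCT1, holds them on the other strand at -4 to 4, across the start. The capitals mark the matches, and each line reads along the strand of its gene, 5′ to 3′: chr2:84840234-84840289 on the plus strand for Slc43a1, and on the minus strand chr3:50443628-50443704 for Slc7a11 and chr11:20332708-20332742 for Slc1a4.
Slc43a1: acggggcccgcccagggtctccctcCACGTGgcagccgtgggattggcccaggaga
Slc7a11: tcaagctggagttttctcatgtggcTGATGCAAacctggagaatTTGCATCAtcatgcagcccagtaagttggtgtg
Slc1a4: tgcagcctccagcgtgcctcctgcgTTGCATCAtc
Both strands were searched. Of all 32851 promoters of that length, 7.15% hold CACGTG and 3.97% hold TGATGNAA, so 1 and 2 of the 7 genes is a description and not a site of binding.

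The libraries held between 25.45 M and 49.95 M mapped reads, as recovered from the steps in low FPKM values, with WT AP the shallowest. Myc, whose entry does not separate mouse from human reads, stood at 201 to 230 FPKM in the WT lobes. In the MYC mouse it had 231 (AP), 586 (DLP) and 1696 (VP) FPKM, so it set the genotypes apart in DLP and VP but not in AP. The luminal keratin gene Krt8 stood at 388 to 1292 FPKM in every library. The cell make-up of the paired libraries differed. All 14 hematopoietic markers measured were at least 2-fold higher in MYC DLP (6.46% of all genes compared), and 12 of the 14 in MYC VP (6.88%). Their summed level was 1476 against 364 FPKM in DLP and 584 against 176 in VP, with none listed at 0 in any library. In MYC AP, 9 seminal vesicle genes summed to 524 FPKM, against 0.112 in WT AP, where 7 of the 9 were listed at 0. These genes summed to 11.3 FPKM in MYC DLP, against 0.186 in WT DLP, and all 9 were listed at 0 in MYC VP. Of 12 fibroblast and matrix markers, 8 were at least 2-fold lower in MYC VP (5.95% of all genes), 5 were lower and 2 higher in MYC DLP (3.39% and 6.46%), and 4 were higher in MYC AP (2.05%). The part of these cells in the values below was not tested, and in bulk tissue fewer cells of a type and less RNA per cell cannot be told apart.

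Of the transporter genes, 5 were lower in MYC than in WT in every lobe: Slc7a5, Slc3a2, Slc1a4, Slc7a1 and Slc7a11. Of all genes compared, 13.9% were lower in all 3 lobes at any size. None of the 10 was higher in all 3 lobes, against 29.9% of all genes. Of the 5, Slc3a2 and Slc7a1 were no longer lower in VP when the libraries were scaled to the luminal keratin genes Krt8 and Krt18. The median log2 ratio of the 10 genes, log2((FPKM + 1) of MYC / (FPKM + 1) of WT), was -0.30 (AP), -0.39 (DLP) and -0.14 (VP), while that of all genes compared was 0.13, 0.03 and 0.04. In the keratin scaling the VP median of the 10 genes was above 0. The ratio was negative for 8 of the 10 genes in AP, 8 in DLP and 7 in VP, against 33.3%, 46.2% and 46.4% of all genes compared.
Few of them passed a 2-fold difference. In AP, on the scale log2(FPKM + 1), none of the 10 was 2-fold higher or lower, where 2.05% of all genes compared were higher and 0.599% lower. The added 1 decides this for the low gene Slc6a14, whose plain ratio of FPKM was 4.67 (2.57 to 9.31). With size factors from medians of ratios, Slc7a5 and Slc7a1 passed 2-fold in AP too. In DLP Slc7a5 and Slc7a1 were at least 2-fold lower and Slc6a14 at least 2-fold higher, where 3.39% of all genes were lower and 6.46% higher. In VP, on the scale log2(FPKM + 1), Slc7a5 alone of the 10 was at least 2-fold lower and none was higher. Of all genes, 5.95% were lower and 6.88% higher there. Slc7a11 had a plain ratio of 0.294 in VP (0.237 to 0.364), and it was past 2-fold with a pseudocount of 0.1. When the libraries were scaled to Krt8 and Krt18, none of the 10 was 2-fold lower in VP.

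**Figure D1:**
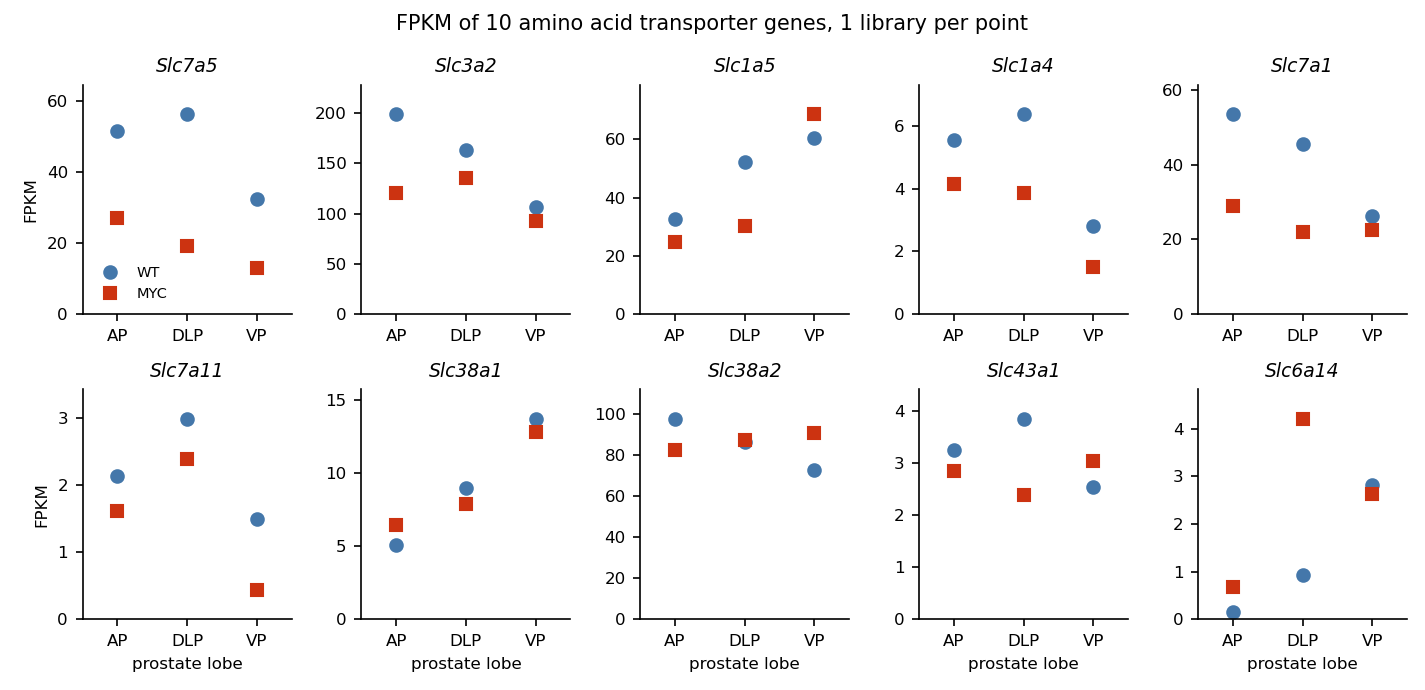
Level of each of the 10 transporter genes in FPKM (vertical axis, starting at 0 and scaled to each gene) in the 3 lobes (horizontal axis), with 1 library per point, circles for WT and squares for MYC. In the values as deposited, Slc7a5 is the gene whose 3 MYC libraries, 13.0 to 27.1 FPKM, all lie below the 3 WT libraries, 32.5 to 56.2 FPKM (not so with scaling to Krt8 and Krt18).

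Slc7a5 (chr8:121881146-121907686, as all gene positions here in GRCm38.p6), the light chain of LAT1, had the lowest log2 ratio of the 10 genes in each lobe on the scale log2(FPKM + 1). As a plain ratio in VP, Slc7a11 was lower still. Its level was 51.6 FPKM in WT AP, 56.2 in WT DLP and 32.5 in WT VP. In the MYC mouse it was 27.1, 19.1 and 13.0 in the same lobes. The highest MYC library was below the lowest WT library, which held for no other of the 10 genes and for 3.06% of all genes compared. It no longer held when the libraries were scaled to Krt8 and Krt18, and it also held for Slc7a1 with size factors from medians of ratios. The log2 ratios were -0.90 for AP, -1.51 for DLP and -1.26 for VP. As plain ratios of FPKM, MYC stood at 0.526 of WT in AP (95% interval 0.504 to 0.548), 0.341 in DLP (0.325 to 0.357) and 0.400 in VP (0.379 to 0.423), from between 1764 and 8714 estimated reads per library. In AP, only 109 of the 12361 genes compared had a lower log2 ratio, in DLP 157, and in VP 414.
Only 12 genes, or 0.0971% of those compared, were lower in each of the 3 lobes by at least the smallest of the log2 ratios of Slc7a5, the one in AP. Slc7a5 is by construction 1 of them. The other genes were Pnliprp1, Ctsc, Derl3, Creld2, Nxph3, Sdf2l1, Hist1h1d, Nppc, Nrn1, Xlr3a and Aars, a set drawn up after the values were seen. Derl3, Creld2 and Sdf2l1 encode proteins of the endoplasmic reticulum, and Aars encodes the alanyl-tRNA synthetase. Under the scalings tried, the log2 ratio of Slc7a5 lay between -1.05 and -0.75 in AP, -1.75 and -1.51 in DLP, and -1.52 and -0.98 in VP, the last under the keratin scaling and just short of 2-fold.

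Slc3a2 (chr19:8706882-8723369), which encodes the CD98 heavy chain shared by LAT1 and its relatives, was the most abundant of the 10 genes in every library. It had 198 FPKM in WT AP, 163 in WT DLP and 106 in WT VP, against 120, 135 and 92.7 in the MYC lobes. The MYC libraries were the lower of each pair, but WT VP lay below 2 of the 3 MYC libraries. MYC stood at 0.606 of WT in AP (0.591 to 0.620), at 0.832 in DLP (0.813 to 0.851) and at 0.871 in VP (0.849 to 0.895). In each lobe the heavy chain differed less between the mice than its LAT1 light chain. The FPKM of Slc7a5 per FPKM of Slc3a2, a ratio within a library that no scaling of libraries can move, was 0.260 in WT AP, 0.345 in WT DLP and 0.306 in WT VP. The MYC lobes had 0.226, 0.141 and 0.140, in the same order.

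**Figure D2:**
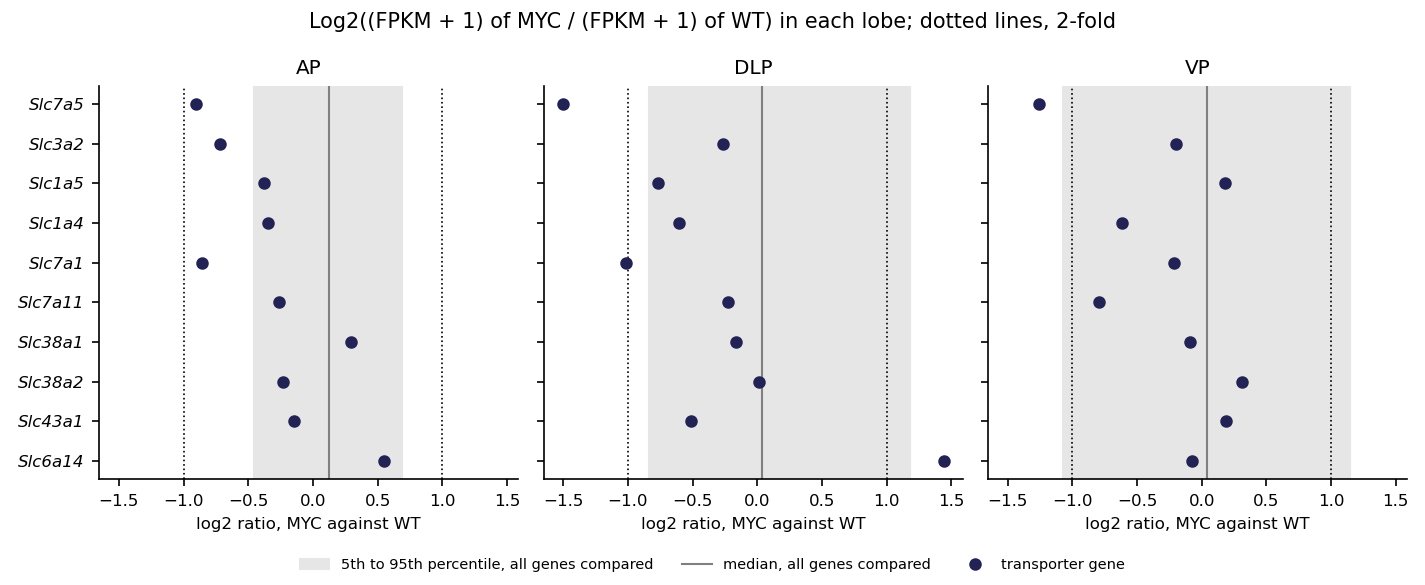
Log2 ratio of MYC against WT for each of the 10 genes (points) in AP, DLP and VP, on the scale log2(FPKM + 1), with the median of all 12361 genes compared (line), the range without the lowest 5% and the highest 5% of them (band) and 2-fold (dotted). Slc7a5, at -0.90, -1.51 and -1.26, lies left of the band in all 3 lobes, and Slc6a14, at 1.44 in DLP, lies right of it in DLP.

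CD98 can pair with 6 light chains, and the other 5 were set beside Slc7a5 after its values had been seen. They are Slc7a8 (LAT2, a second carrier of large neutral amino acids), Slc7a6 and Slc7a7 (which exchange cationic for neutral amino acids), Slc7a11 (xCT) and Slc7a10, which is listed at 0 in all 6 libraries. In the WT mouse Slc7a5 made up nearly the same share of the summed light chain FPKM in each lobe, namely 70.1% (AP), 71.6% (DLP) and 71.1% (VP). In the MYC mouse it made up 52.5%, 41.1% and 31.4%. Such shares are within a library and do not depend on its scaling. They can differ with the cell make-up of the libraries, whose part in them was not tested.
Slc7a8 had 11.6, 10.04 and 5.27 FPKM in WT AP, DLP and VP, and 11.5, 11.8 and 14.8 in MYC AP, DLP and VP. In MYC VP it was above Slc7a5, with 1.13 FPKM per FPKM of Slc7a5, against 0.162 in WT VP. In AP this ratio was 0.225 in WT and 0.424 in MYC, and in DLP 0.179 and 0.618. Slc7a6 was at 6.40, 7.03 and 5.21 FPKM in the WT lobes and 8.92, 9.93 and 9.61 in the MYC lobes, and Slc7a7 at 1.83, 2.19 and 1.27 against 2.54, 3.30 and 3.65. The 6 light chains together came to 73.5, 78.4 and 45.8 FPKM in WT AP, DLP and VP and to 51.7, 46.6 and 41.5 in MYC. Without Slc7a5 the sum was 22.0, 22.2 and 13.3 in WT and 24.6, 27.5 and 28.5 in MYC. Per FPKM of Slc3a2, the light chains summed to between 0.371 and 0.482 in WT and between 0.344 and 0.447 in MYC, so the 2 mice overlapped in this ratio.

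**Figure D3:**
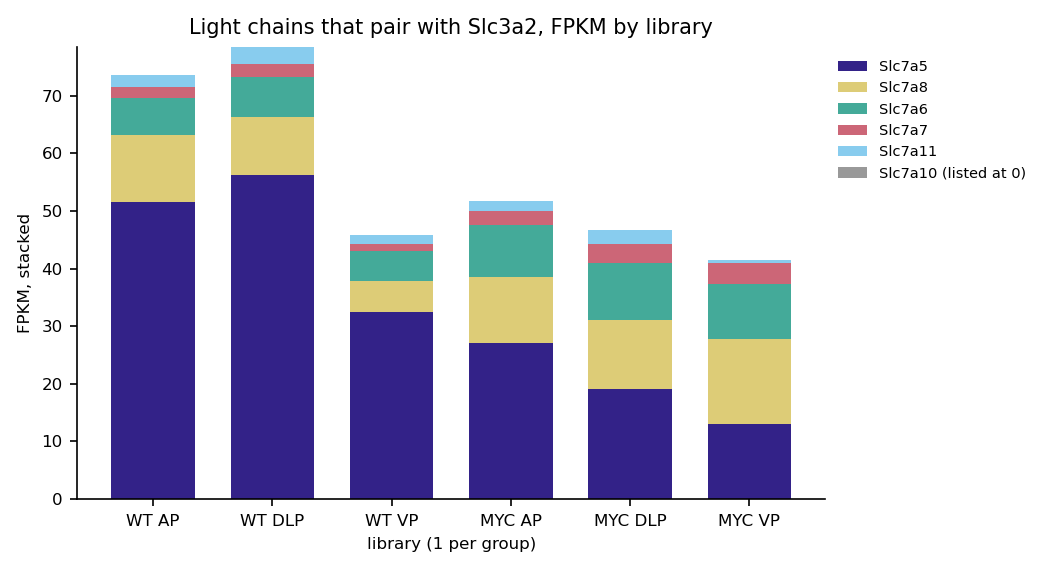
FPKM of the 6 light chain genes that pair with Slc3a2 (stacked bars, vertical axis from 0) in each of the 6 libraries (horizontal axis). The Slc7a5 part is 70.1% to 71.6% of the bar in the WT libraries and 52.5%, 41.1% and 31.4% in MYC AP, DLP and VP, and the part of Slc7a8 is the widest in MYC VP.

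Slc7a1 (chr5:148327410-148399904) encodes CAT1, the widely expressed carrier of arginine, lysine and ornithine. It was at 53.4, 45.6 and 26.2 FPKM in WT AP, DLP and VP and at 29.0, 22.1 and 22.5 in MYC AP, DLP and VP. The AP and DLP pairs were well apart, and the VP pair was close. MYC stood at 0.544 of WT in AP (0.521 to 0.567), at 0.484 in DLP (0.462 to 0.508) and at 0.858 in VP (0.817 to 0.901). On the log2 scale the ratios were -0.86, -1.01 and -0.21, the last of which was 0.04 under the keratin scaling.
Slc7a2, the gene of the related cationic carrier CAT2, differed in the other direction, and it was singled out after its values were seen. It had 1.24, 1.11 and 0.495 FPKM in WT AP, DLP and VP and 3.804, 6.95 and 1.12 in MYC, log2 ratios of 1.10, 1.91 and 0.50. Slc7a1 was 43.1, 41.0 and 52.9 times as abundant as Slc7a2 in the WT lobes, and 7.63, 3.18 and 20.1 times in the MYC lobes. Slc7a2 is known from activated macrophages, and the hematopoietic markers were also higher in MYC DLP and VP, though not in AP, where their sum was 591 FPKM in MYC against 769 in WT. Their part in the Slc7a2 values was not tested.

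Slc1a5 (chr7:16781334-16798274) and Slc1a4 (chr11:20302180-20332713) encode ASCT2 and ASCT1, which exchange small neutral amino acids, ASCT2 being a main route for glutamine. Slc1a5 was at 32.5, 52.2 and 60.3 FPKM in WT AP, DLP and VP and at 24.8, 30.3 and 68.5 in MYC AP, DLP and VP. It was lower in MYC in AP, at 0.763 of WT (0.707 to 0.823), and in DLP, at 0.580 (0.545 to 0.618). In VP it was slightly higher in MYC, at 1.13 of WT (1.09 to 1.19), a direction that turned with equal sums of FPKM. The log2 ratios were -0.38, -0.77 and 0.18.
Slc1a4 was the lower of the pair, at 5.56, 6.37 and 2.82 FPKM in the WT lobes and 4.16, 3.85 and 1.497 in the MYC lobes. It was lower in MYC in each lobe, with log2 ratios of -0.35, -0.60 and -0.61, and MYC at 0.748 of WT in AP, 0.605 in DLP and 0.530 in VP (0.452 to 0.621). The FPKM of Slc1a5 per FPKM of Slc1a4 was alike between genotypes in AP, 5.85 in WT and 5.97 in MYC, and in DLP, 8.20 and 7.86. In VP it was 21.4 in WT and 45.7 in MYC.

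Slc38a2 (chr15:96687392-96699728) and Slc38a1 (chr15:96571418-96643438), which lie near each other, encode the sodium-coupled system A carriers SNAT2 and SNAT1 for glutamine, alanine and other small neutral amino acids. Slc38a2 was at 97.4, 86.4 and 72.8 FPKM in WT AP, DLP and VP and at 82.6, 87.0 and 90.6 in MYC AP, DLP and VP. The 6 libraries lay close together and the mice overlapped. Its log2 ratios of -0.24, 0.01 and 0.31 were lower in AP, near 0 in DLP and higher in VP, and the sign in DLP turned with the scaling. Slc38a1 was at 5.08, 8.96 and 13.7 FPKM in the WT lobes and at 6.44, 7.87 and 12.8 in the MYC lobes, log2 ratios of 0.29, -0.17 and -0.09, the last of which was above 0 under the keratin scaling. In the values as deposited, the level of Slc38a1 followed the lobe more than the genotype. With scaling to Krt8 and Krt18, its log2 ratio was -0.17 in WT VP against WT AP and -0.88 against WT DLP.

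Slc7a11 (chr3:50364936-50499087) encodes xCT, the light chain that brings in cystine for glutathione synthesis in exchange for glutamate. It was low in all libraries, at 2.14, 2.99 and 1.501 FPKM in WT AP, DLP and VP and at 1.62, 2.40 and 0.442 in MYC AP, DLP and VP. MYC VP was the lowest library. There, 109 estimated reads stood against 446 in WT VP, a ratio of 0.294 (0.237 to 0.364), below the 0.400 of Slc7a5 in the same lobe. On the log2(FPKM + 1) scale, which understates low genes, it was -0.79, and with a pseudocount of 0.1 it passed 2-fold. In AP and DLP MYC stood at 0.759 (0.657 to 0.875) and 0.803 (0.717 to 0.897) of WT.

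Slc43a1 (chr2:84838855-84863586), the gene of the LAT3 leucine carrier, was at 3.26, 3.85 and 2.55 FPKM in the WT lobes and 2.85, 2.40 and 3.05 in the MYC lobes. The log2 ratios were -0.15, -0.51 and 0.19 in AP, DLP and VP. The AP interval of the ratio, 0.729 to 1.05, includes 1, and the VP interval, 1.01 to 1.41, nearly does. The sign in VP turned when equal sums were taken without the 20 highest genes.

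Slc6a14 (chrX:21714900-21742358) encodes ATB0,+, a concentrative sodium- and chloride-coupled carrier that takes neutral and cationic amino acids, and it was the 1 member that was 2-fold higher in MYC. It was at 0.145, 0.919 and 2.82 FPKM in WT AP, DLP and VP and at 0.680, 4.20 and 2.64 in MYC AP, DLP and VP. The WT lobes formed a ladder from AP to VP, and MYC DLP was the highest of the 6 libraries. MYC was 4.58 times WT in DLP (3.78 to 5.56), from 472 and 140 estimated reads, and 4.67 times in AP (2.57 to 9.31), from only 110 and 12 reads. In VP the ratio was 0.934, with an interval of 0.810 to 1.08 that includes 1. The log2 ratios were 0.55, 1.44 and -0.07, and the AP value was past 2-fold with a pseudocount of 0.1.

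In the values as deposited, few of the 10 genes were 2-fold apart among the lobes of the WT mouse. On the scale log2(FPKM + 1), none differed 2-fold between DLP and AP, where 3.85% of all genes were higher in DLP and 1.31% lower. The added 1 decides this for the low gene Slc6a14, whose plain ratio of FPKM was 6.32 (3.50 to 12.5). On the same scale none differed 2-fold between VP and DLP, where 2.63% of all genes were higher in VP and 6.29% lower. Slc6a14 was just short of it, with a plain ratio of 3.07 (2.54 to 3.74), and Slc1a4 had a plain ratio of 0.443 (0.399 to 0.493). With size factors from medians of ratios, or with equal sums of FPKM, Slc6a14 was past 2-fold. Between VP and AP, Slc38a1 and Slc6a14 were at least 2-fold higher in VP and Slc7a1 was 2-fold lower, where 7.89% of all genes were higher and 10.3% lower. Slc7a1 had a log2 ratio of -1.001 and lay at the threshold, and it was short of it with size factors from medians of ratios. The call of Slc38a1 turned sign when the libraries were scaled to Krt8 and Krt18, whose levels were themselves far higher in VP (1292 FPKM of Krt8 in WT VP against 400 in WT AP). In that scaling 8 of the 10 were 2-fold lower in WT VP than in WT DLP. Against WT AP, 7 were lower and 1 higher in WT VP. The medians of all genes compared were then -1.44 against WT DLP and -1.33 against WT AP.
The order of the lobes differed between the genes. Slc6a14 was 19.4 times as high in VP as in AP of the WT mouse (11.0 to 37.8) and 3.88 times in the MYC mouse (3.12 to 4.84). Slc38a1 was 2.696 times as high in WT (2.51 to 2.90) and 1.99 times in MYC (1.88 to 2.09). Slc1a5 was 1.85 times as high in WT (1.74 to 1.98) and 2.76 times in MYC (2.60 to 2.92). Slc7a5, Slc3a2, Slc1a4, Slc7a1 and Slc7a11 were instead lower in VP than in AP in both mice. In all, 8 of the 10 genes differed in the same direction in both mice between VP and AP, as did 73.6% of all genes compared. The exceptions were Slc38a2 and Slc43a1. Between VP and DLP it was 6 of 10 (72.2% of all genes), and between DLP and AP 5 of 10 (63.8%).

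**Figure D4:**
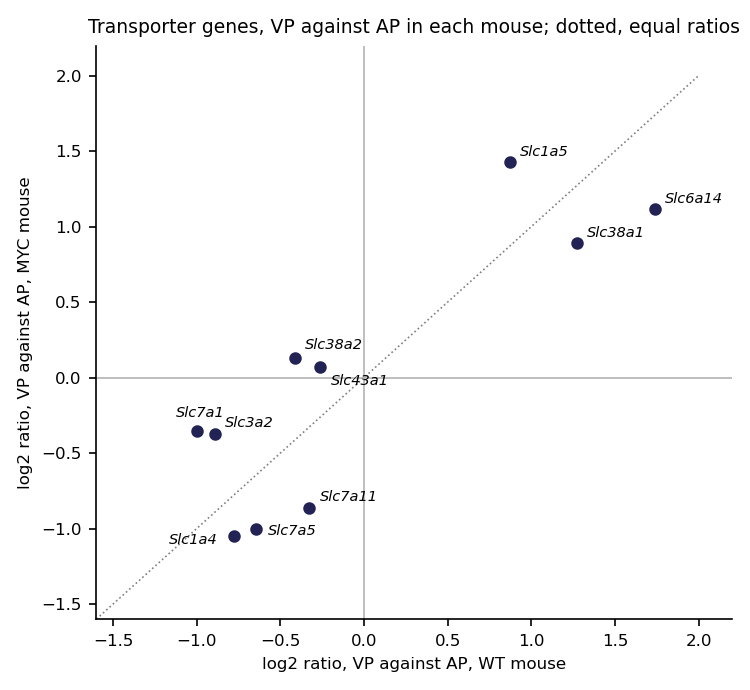
Log2 ratio of VP against AP on the scale log2(FPKM + 1) for the 10 genes, in the WT mouse (horizontal axis) and in the MYC mouse (vertical axis), with libraries as deposited and the dotted line where both are equal. Slc6a14, Slc38a1 and Slc1a5 lie at the upper right, higher in VP in both mice (with scaling to Krt8 and Krt18, Slc38a1 and Slc1a5 turn sign in WT), and Slc7a5, Slc1a4, Slc7a11, Slc3a2 and Slc7a1 lie at the lower left.

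Over the 6 libraries, the 10 genes fell into patterns that are given as a description, since the points share 2 mice and 3 lobes. Pearson's r of log2(FPKM + 1) was 0.90 between Slc7a5 and Slc7a1, 0.79 between Slc7a5 and Slc3a2, 0.90 between Slc3a2 and Slc1a4, and 0.93 between Slc1a4 and Slc7a11. Slc1a5 and Slc38a1 had an r of 0.86 with each other, and -0.15 and -0.44 with Slc7a5. Slc6a14 ran opposite to Slc7a1, with an r of -0.87. Of the 5359 other genes whose mean was 10 FPKM or more, the most like Slc7a5 over the 6 libraries were Impact (r = 0.99), Ugdh (0.99), Plekho2 (0.99), Akap2 (0.98) and Cars (0.98). Slc7a1 ranked 95 and Slc3a2 ranked 389 in this order. Cars, which encodes the cysteinyl-tRNA synthetase, was at 31.7, 28.8 and 23.6 FPKM in the WT lobes and at 19.1, 16.7 and 14.3 in the MYC lobes.

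Of 36 other plasma membrane amino acid transporter genes listed, 12 passed the filter, and none of these was 2-fold lower in MYC in any lobe, where 0.599%, 3.39% and 5.95% of all genes were lower in AP, DLP and VP. In each lobe 4 of the 12 were lower at any size, as were 33.3%, 46.2% and 46.4% of all genes, and 2 (16.7%) were lower in all 3 lobes, against 13.9% of all genes compared. Higher in all 3 lobes were 5 of the 12, against 29.9% of all genes. In AP 1 was 2-fold higher (Slc7a2), in DLP 1 (Slc7a2), and in VP 2 (Slc7a8 at 1.33 and Slc7a7, just past the threshold, at 1.04), where 2.05%, 6.46% and 6.88% of all genes were higher. The medians were 0.19, 0.24 and 0.34, against 0.13, 0.03 and 0.04 for all genes. The most abundant were Slc38a10, at 28.3 to 45.4 FPKM, and the taurine transporter gene Slc6a6, at 10.5 to 24.0 FPKM. Of the mitochondrial carriers, 7 of 9 genes were compared, with medians of 0.21 (AP), -0.23 (DLP) and 0.03 (VP). At 2-fold, 1 was lower in DLP (3.39% of all genes), and 1 lower and 1 higher in VP (5.95% and 6.88%). Slc25a29, a carrier of basic amino acids, was 2-fold lower in MYC DLP (2.52 against 8.21 FPKM) and in MYC VP (2.03 against 7.06), while the glutamate carrier gene Slc25a22 was 2-fold higher in MYC VP (17.5 against 7.78).

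Genes of the amino acid response, those that ATF4 is known to raise when amino acids run short, leaned to lower values in MYC. Of 24 listed, 23 were compared, with medians of -0.26 (AP), -0.29 (DLP) and -0.39 (VP), and 11 of them (47.8%) were lower in all 3 lobes, against 13.9% of all genes compared. Higher in all 3 lobes were 2 of the 23, against 29.9% of all genes. At 2-fold, 3 were lower and none higher in AP (0.599% and 2.05% of all genes). In DLP 2 were lower and 1 higher (3.39% and 6.46%), and in VP 6 lower and 1 higher (5.95% and 6.88%). Atf4 itself was at 586, 506 and 651 FPKM in WT AP, DLP and VP and at 453, 406 and 411 in MYC, log2 ratios of -0.37, -0.32 and -0.66. Atf5, a related factor, had log2 ratios of -0.65, -1.02 and -1.37. Ddit3, which encodes the stress factor CHOP, was level in AP (68.5 FPKM in WT and 68.4 in MYC) and had 0.43 in DLP and -1.28 in VP. Aldh1l2, a mitochondrial folate enzyme, had -0.37, -0.29 and -1.59. Atf3 and Nupr1, which with Atf4 were the most abundant of the list, were higher in MYC in AP and DLP and lower in VP: Atf3 had 0.58, 0.58 and -0.39, and Nupr1 had 0.81, 0.79 and -0.53. Named after their values were seen, Trib3, a pseudokinase that restrains ATF4, had -1.26, -0.71 and -1.16, Chac1, which breaks down glutathione, -0.90, -0.78 and -1.06, and Asns, the asparagine synthetase, -1.12, -0.95 and 0.58. Ddit4, named in the same way, was the gene 2-fold higher in DLP and VP, with 0.06, 1.09 and 1.08. Also named so, Phgdh had -0.10, -0.38 and 0.02, and Pck2 had -0.26, -0.08 and 0.10.

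**Figure D5:**
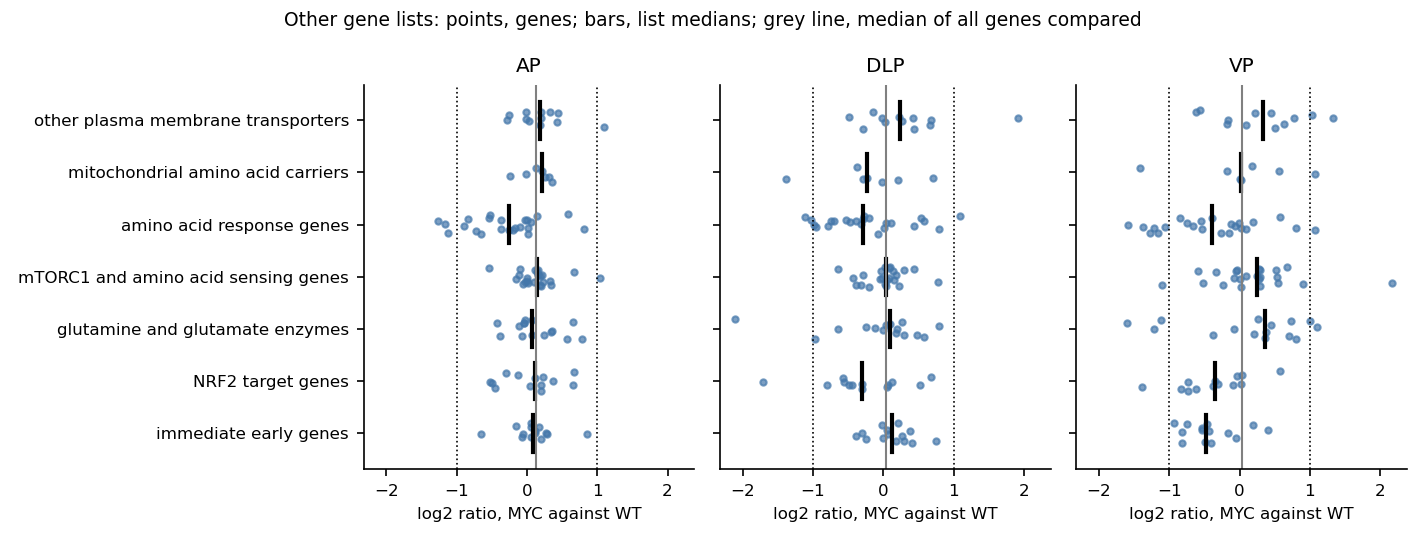
Log2 ratios of MYC against WT on the scale log2(FPKM + 1) in AP, DLP and VP for the genes of 7 other lists (points), with list medians (black bars), the median of all genes compared (grey line) and 2-fold (dotted). The amino acid response genes have medians of -0.26, -0.29 and -0.39, and the other plasma membrane transporters 0.19, 0.24 and 0.34.

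Of 24 genes of mTORC1 and its amino acid sensors, 23 were compared, with medians of 0.15, 0.04 and 0.25 against 0.13, 0.03 and 0.04 for all genes, and at most 1 gene past 2-fold in either direction per lobe, beside the shares of all genes given for the amino acid response. In all 3 lobes 11 of the 23 were higher, as were 29.9% of all genes compared, and 3 were lower, as were 13.9%. Sesn1, a sestrin that restrains mTORC1, was the widest, at 3.92, 4.15 and 6.04 FPKM in the WT lobes and 9.06, 7.81 and 30.7 in the MYC lobes. Depdc5, a subunit of the GATOR1 complex that also restrains mTORC1, had 24.0 FPKM in the WT VP library against 10.7 in the MYC one.
The 15 genes of glutamine and glutamate metabolism had medians of 0.07, 0.09 and 0.37. None was 2-fold apart in AP, where 2.05% of all genes were higher and 0.599% lower. In DLP 1 was 2-fold lower and none higher (3.39% and 6.46% of all genes). In VP 3 were lower and 2 higher (5.95% and 6.88% of all genes). Prodh, which starts the breakdown of proline, was at 27.1, 25.3 and 8.43 FPKM in WT AP, DLP and VP and at 20.6, 5.09 and 2.10 in MYC. Oat, the ornithine aminotransferase, had log2 ratios of -0.04, -0.97 and -1.11, and Gfpt1, which uses glutamine for hexosamines, 0.25, -0.65 and -1.22. Glul, the glutamine synthetase, had 0.65, 0.18 and 0.37, and the mitochondrial aspartate aminotransferase gene Got2 had 0.36, 0.48 and 0.73. The genes that were 2-fold higher in VP were Got1, the cytosolic aspartate aminotransferase, at 1.01, and Cad, which starts pyrimidine synthesis, at 1.10, both named after their values were seen.
Among 13 genes linked to NRF2, a factor that also acts on Slc7a11, the medians were 0.11, -0.31 and -0.35, and 5 (38.5%) were lower in all 3 lobes, against 13.9% of all genes compared. Hmox1, the heme oxygenase, was at 58.8, 140.5 and 68.1 FPKM in WT AP, DLP and VP and at 42.7, 42.3 and 25.4 in MYC. Nfe2l2, the gene of NRF2, had log2 ratios of -0.30, -0.58 and -0.62. Immediate early genes, which respond within minutes to tissue handling, had medians of 0.08, 0.13 and -0.48, against 0.13, 0.03 and 0.04 for all genes. None of 14 was 2-fold lower, against 0.599%, 3.39% and 5.95% of all genes, and none was 2-fold higher, against 2.05%, 6.46% and 6.88%. Of these, Egr1 had 1124 FPKM in the VP of the WT mouse against 637 in that of the MYC mouse.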

How the data were processed

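Per the submitters' processing notes and the methods, the authors aligned the reads to mm10 with STAR and quantified genes with Cufflinks in the VIPER workflow. bcl2fastq 2.18 is also named. The gene annotation is not given in the sources used here. The deposited table holds FPKM. The methods call these values read counts, but they are not whole numbers, so no count model was run. Groups were taken from the sample titles.

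The 10 members and all lists were chosen with earlier results of these data known. Comparisons used log2(FPKM + 1) as deposited, genes averaging 1 FPKM or more, and a 2-fold threshold. The 3 lobes of a genotype share 1 mouse, so no test between genotypes was made. Library depth was recovered from genes with a single exon and transcript over 600 bases at under 0.3 FPKM, whose FPKM times length less 200 bases falls in steps. Between 62.6% and 72.7% of these values lay within 3% of whole reads. GENCODE M1 (NCBIM37) served for transcript lengths only. Estimated reads gave exact 95% Clopper-Pearson intervals of ratios, which cover counting error only. Symbols and promoters are those of RefSeq for GRCm38.p6, the assembly of mm10.

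Beside all 10 members, the rule named the 5 most like Slc7a5 among genes averaging 10 FPKM or more and, for each list of other plasma membrane transporters, mitochondrial carriers, amino acid response, mTORC1 and amino acid sensing, glutamine and glutamate enzymes, NRF2 targets and immediate early genes, up to 3 with the highest mean and 3 with the largest VP ratio, some of which are left out. Genes outside this rule were named after their values were seen, as said beside them, or as light chains of CD98. Marker lists covered luminal, basal, luminal progenitor, fibroblast, smooth muscle, endothelial, hematopoietic and seminal vesicle genes. Alternatives were 4 other scalings, a pseudocount of 0.1, no filter, a minimum mean of 10 FPKM and a 4-fold threshold. The computations were tested on simulated data. Software was Python 3.11.15, scipy 1.17.1, pandas 2.3.3, numpy 2.4.6 and, for plots, matplotlib 3.10.9.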

Additional observations from a re-analysis of the deposited data

Results flagged for a closer look

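For 4 of the transporter genes, the MYC libraries of different lobes lay on opposite sides of their WT libraries by more than counting error. The difference between the lobes was not tested, since each side rests on 1 library per genotype. Slc1a5 was 0.94 higher on the log2 scale in VP than in DLP (0.9446), with ratios of 0.18 and -0.77. Slc43a1 differed by 0.70 between VP and DLP (0.7025), with ratios of 0.19 and -0.51. Slc38a2 differed by 0.55 between VP and AP (0.5476), with ratios of 0.31 and -0.24. Slc38a1 differed by 0.46 between AP and DLP (0.4585), with ratios of 0.29 and -0.17. The positive VP values of Slc1a5 and Slc43a1 became negative when equal sums were taken without the 20 highest genes.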

How the results depend on the processing

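Of 390 values of single genes under the alternatives, 18 changed sign, and 1 of those belonged to a value past 2-fold: Slc38a1 in WT VP against WT AP was -0.17 with scaling to Krt8 and Krt18. Only the 4 other scalings could turn a sign. The filters leave each value as it is, and another pseudocount keeps its direction, so the 390 include values that could not change sign. Slc7a5 was lower in MYC in each lobe under all alternatives. Over the scalings, 3 (keratins) to 7 (equal sums without the 20 highest genes) of 10 members were lower in all 3 lobes, while 7.42% and 22.8% of all genes were.
Size factors from medians of ratios gave 2 members at least 2-fold lower in AP (Slc7a5 and Slc7a1), medians of -0.43 in AP and -0.25 in VP, 1 member (Slc6a14, also below) higher in WT VP than WT DLP and 0 lower in WT VP than WT AP. Equal sums of FPKM gave a VP median of -0.37, 1 member higher in WT VP than WT DLP and 2 lower in WT VP than WT AP. Equal sums without the 20 highest genes gave medians of -0.53 in DLP and -0.41 in VP, 1 higher in WT VP than WT DLP and 0 lower in WT VP than WT AP. Scaling to Krt8 and Krt18 gave medians of -0.62 in DLP and 0.082 in VP, 0 lower in VP, 8 lower in WT VP than WT DLP, and 1 higher and 7 lower in WT VP than WT AP; it moved the median of all genes in WT VP against WT DLP from -0.13 to -1.44. The VP median of all genes was -0.15 with equal sums, -0.18 without the top 20 and 0.23 with the keratins.
A pseudocount of 0.1 gave 1 higher in AP, 2 lower in VP, a DLP median of -0.48, 1 higher in WT DLP than WT AP, and 1 higher and 1 lower in WT VP than WT DLP. A minimum mean of 10 FPKM left 5 members, with medians of -0.72 in AP and -0.77 in DLP, and 0 higher in DLP and in WT VP against WT AP. At 4-fold, 0 members were higher or lower in DLP, lower in VP, or apart in WT VP against WT AP.
No paired analysis was possible because there is 1 mouse per genotype, so pairs by lobe are not replicates. Depth limits the low genes most, above all Slc6a14 in WT AP.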

Other observations

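The remaining marker lists give the setting of these values. The 8 luminal markers had median log2 ratios of -0.22 (AP), -0.08 (DLP) and -0.30 (VP), and the 8 basal markers -0.41, 0.32 and -0.59. The 6 luminal progenitor markers had 0.95, 0.92 and 0.08. The 10 smooth muscle markers had 0.60, -0.83 and -0.92, the 12 fibroblast and matrix markers 0.42, -0.65 and -1.61, and the 10 endothelial markers 0.12, 0.23 and 0.05.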
